A study of Mus musculus with 4 samples.

Results

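The genes described here encode the lipases, transfer proteins and partner proteins that build, remodel and clear plasma lipoproteins: Lpl, Lipc, Lipg, Pltp, Lcat, Mttp, Scarb1, Tm6sf2 and Angptl4. The 9 genes were taken by symbol, as a set drawn up with earlier results of these data known. Each symbol matched 1 Ensembl identifier among the 37315 in the count files. All 9 passed the filter on low counts, which left 13836 tested genes, and none passed through 1 genotype alone, since the lowest count of any of them in any library was 202 reads (Lpl in a wild-type library).

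Liver RNA came from C57BL/6 mice of 23 weeks. The wild-type group (WT) and the Fto knockout group (KO) held 2 libraries each. The labels give no knockout allele, sex, diet or feeding state for either group, and they do not say whether the libraries of a genotype came from separate animals. Fto codes for an RNA demethylase that acts on N6-methyladenosine among other bases, and the design asks what its disruption does to liver transcripts.

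Triglyceride-rich lipoproteins leave the liver as very low density lipoprotein (VLDL), which the microsomal transfer protein encoded by Mttp loads with lipid. Lipoprotein lipase (Lpl) at the capillary wall then releases fatty acids from VLDL and chylomicrons, while hepatic lipase (Lipc) and endothelial lipase (Lipg), of the same family, act mainly on remnants and high density lipoprotein (HDL). Phospholipid transfer protein (Pltp) and lecithin-cholesterol acyltransferase (Lcat) remodel HDL, whose cholesterol esters the liver takes up through the receptor SR-BI (Scarb1). Lpl is expressed mainly in fat and muscle and is low in adult hepatocytes, so that macrophages of the liver are another source of its transcript.

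Total counts were between 39549592 and 44689114 per library, so 1 read was worth 0.0216 to 0.0263 counts-per-million (CPM) after scaling by the trimmed mean of M-values (TMM). Fto had 41.2 and 33.9 CPM in WT and 13.1 and 12.1 CPM in KO, below WT in both libraries as the label says (log2 fold change -1.57, SE 0.195, edgeR adjusted p = 0.0109). The 12 hepatocyte markers summed to 86400 and 93600 CPM in WT and to 97400 and 107000 CPM in KO, higher in both KO libraries. Most of each sum was Alb, whose genotypes overlapped (53500 and 64800 CPM in WT, 58300 and 70100 CPM in KO). The genotypes overlapped in 8 of the 12 markers, and 42.0% of all tested genes had no overlap. The median log2 fold change of the 12 was 0.09, with 8 positive and 4 negative values, and edgeR called none, beside 1.91% of all tested genes. Libraries numbered 2 had lower levels of long transcripts than libraries numbered 1: above 8000 bases the median log2 ratio was -0.44 in WT and -0.39 in KO, while below 1000 bases it was positive (0.33 and 0.17).

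Among the 9 genes, Lpl rose in KO liver, Pltp was lower in both KO libraries and just missed the threshold, and the other 7 did not pass. The single call, 1 of 9, stands beside 1.91% of all tested genes called at an adjusted p under 0.05 (0.961% higher and 0.947% lower in KO). Pltp ranked 281 by p among all tested genes, and 264 were called. The median log2 fold change of the 9 genes was -0.09, with 4 positive and 5 negative values, and that of all tested genes was 0.01. In 5 of the 9 genes the WT and KO libraries did not overlap in CPM, 1 higher and 4 lower in KO. Of all tested genes 42.0% had no overlap, 21.6% higher and 20.4% lower, so a gene without overlap is common in these libraries.

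**Figure D1:**
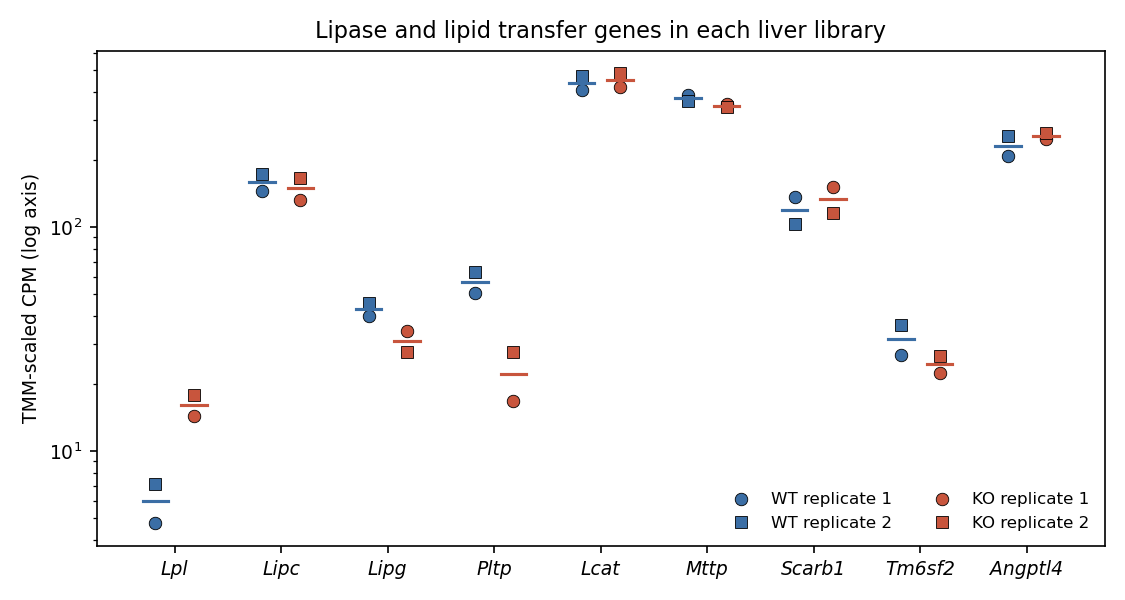
TMM-scaled CPM of the 9 genes (log axis) in each library; blue is WT, red is KO, circles are replicates numbered 1, squares those numbered 2, and lines are means of 2 libraries. Lpl is the lowest gene and sits above both WT libraries in KO, Pltp sits below them, and Lcat is the highest in all 4 libraries.

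Lpl (chromosome 8, 68880491 to 68907448, plus strand, mm10) encodes the lipase of muscle and fat capillaries. WT replicates 1 and 2 gave 202 and 272 reads of it and the KO replicates 661 and 709, or 4.76 and 7.15 CPM against 14.3 and 17.7 CPM. Both KO libraries lay above both WT libraries. The mean rose from 5.95 ± 1.68 to 16 ± 2.42 CPM (SD over 2 libraries), 2.69-fold with a 95% interval from 1.79 to 4.05 (log2 fold change 1.43, SE 0.254, edgeR adjusted p = 0.0369). Within replicate number 1 the log2 ratio was 1.59, and within number 2 it was 1.31. With scaling by library size alone the gene was not called (edgeR adjusted p = 0.0528, with 1.27% of all tested genes called). In bulk liver, a change in the number of cells that make a transcript and a change in the RNA per cell cannot be told apart.

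Lipc (chromosome 9, 70798128 to 70952226, minus strand) encodes hepatic lipase, which hepatocytes secrete. It had 145 and 173 CPM in WT and 132 and 166 CPM in KO. The genotypes overlapped, and the log2 fold change was -0.09 with a 95% interval from -0.55 to 0.36 (edgeR adjusted p = 0.918). Its sign turned when WT replicate 2 or KO replicate 1 was left out (0.03 and 0.06).

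Lipg (chromosome 18, 74939322 to 74961263, minus strand) encodes endothelial lipase, a phospholipase of HDL. It had 40.1 and 45.9 CPM in WT and 34.3 and 27.7 CPM in KO. Both KO libraries lay below both WT libraries, but the log2 fold change of -0.47 (SE 0.196, 95% interval -0.92 to -0.02) did not pass (edgeR adjusted p = 0.364, unadjusted p = 0.0443). The gap was wider within replicate number 2, with a log2 ratio of -0.73, than within number 1, with -0.22.

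Levels of different genes can be set side by side only per length, here as CPM per kilobase of annotated exon (RPKM). Of the summed RPKM of the 3 lipases, Lipc held between 87.6% and 91.1% in every library. Lipg held 11.2% and 10.7% in WT and 10.4% and 6.95% in KO. Lpl held 0.597% and 0.750% in WT and 1.95% and 2% in KO, so it stayed the least abundant of the 3 lipase transcripts in both genotypes. The exons annotated for Lpl add up to 10478 bases, against 4115 in its longest transcript, and with the longest transcript as length the mean share was 1.5% in WT and 4.34% in KO.

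Angptl4 (chromosome 17, 33773750 to 33781830, minus strand) encodes a secreted protein that inactivates lipoprotein lipase and is a known target of peroxisome proliferator-activated receptors. It had 208 and 254 CPM in WT and 247 and 263 CPM in KO. The genotypes overlapped, and the log2 fold change was 0.14 with a 95% interval from -0.28 to 0.56 (edgeR adjusted p = 0.833). Within a library, the ratio of Lpl to Angptl4 in RPKM was 0.00774 and 0.00951 in WT and 0.0195 and 0.0228 in KO. In all 4 libraries the transcript of the inhibitor was thus the more abundant by far, also relative to the KO level of Lpl.

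**Figure D2:**
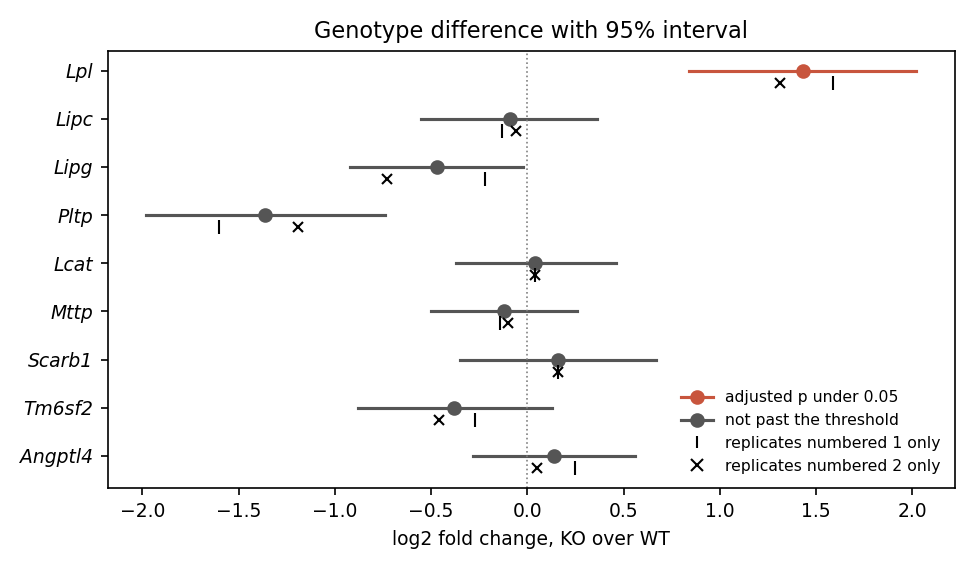
Log2 fold change of KO over WT for the 9 genes with its 95% interval from the edgeR fit over all genes (points and bars), and the ratio within each replicate number (ticks and crosses). The intervals of Lpl, Pltp and Lipg do not include 0, and Lpl alone passed after adjustment over 13836 genes.

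Of 19 further genes that regulate lipases or act as their cofactors, edgeR called none, and neither did DESeq2 or limma-voom. With edgeR 3 of them had an unadjusted p under 0.05, where 13.0% of all tested genes did. A total of 16 of the 19 had a negative log2 fold change, and the median was -0.29 beside 0.01 for all tested genes. Apoc1, an apolipoprotein that inhibits lipases, had the smallest p, averaging 4270 ± 318 CPM in WT against 2770 ± 36.5 in KO (SD, n = 2; log2 fold change -0.63, edgeR adjusted p = 0.145). Apoc2, the cofactor that lipoprotein lipase needs for activity, had a log2 fold change of -0.62 (edgeR adjusted p = 0.308), and was the 1 gene of the list called when WT replicate 1 was left out (-0.88, edgeR adjusted p = 0.0439). Apoc3, which opposes the lipase, had -0.43 (edgeR adjusted p = 0.384). Gpihbp1, the endothelial protein that carries lipoprotein lipase to the capillary lumen, averaged 12.1 ± 4.56 CPM in WT against 8.74 ± 1.38 in KO (SD, n = 2; log2 fold change -0.47, edgeR adjusted p = 0.576). The ratio of Lpl to Gpihbp1 in RPKM was 0.131 and 0.114 in WT and 0.449 and 0.444 in KO, so the genotypes did not overlap.

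Pltp (chromosome 2, 164839518 to 164857711, minus strand) encodes the protein that moves phospholipids from triglyceride-rich lipoproteins to HDL. WT gave 2146 and 2394 reads of it and KO 771 and 1103, or 50.6 and 62.9 CPM against 16.7 and 27.6 CPM. Both KO libraries lay below both WT libraries. The fitted KO level was 39% of that in WT (log2 fold change -1.36, SE 0.268, 95% interval -1.98 to -0.74), which just missed the threshold (edgeR adjusted p = 0.0533). It passed with DESeq2 (adjusted p = 1.21e-04, 4.15% of all tested genes called) and with limma-voom (adjusted p = 0.0465, 1.86% called). It also passed with edgeR when any 1 library was left out, settings that called 4.42% of tested genes (WT replicate 1 out), 3.60% (WT replicate 2 out), 3.23% (KO replicate 1 out) and 3.56% (KO replicate 2 out). Exons of Pltp overlap those of Ctsa, a lysosomal protease gene on the opposite strand, and the library kit does not mark strand, so reads of the shared bases cannot be told apart. Ctsa had 148 and 173 CPM in WT and 172 and 207 CPM in KO (log2 fold change 0.23, edgeR adjusted p = 0.691).

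**Figure D3:**
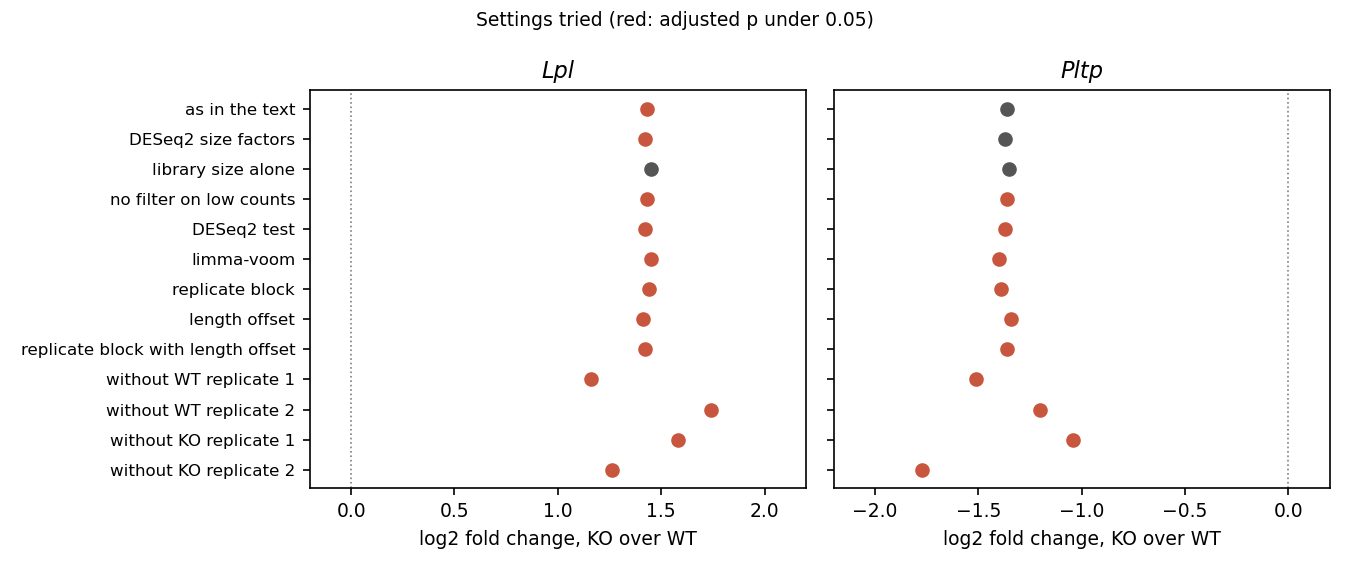
Log2 fold change of Lpl and Pltp (x axis) under the setting used in the text and 12 others (y axis); red points had an adjusted p under 0.05. Lpl lies between 1.16 and 1.74 and Pltp between -1.77 and -1.04, with no change of sign for either gene.

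Promoter windows from RefSeq on build GRCm38.p6 were used for 4 of the 9 genes: Pltp, Lcat, Mttp and Lipc. No window was used for the other members, which does not show that RefSeq or the source table lacks them. Shown are the stretches upstream of the start site that lie in no GENCODE exon. Pltp had the largest difference after Lpl, and Lcat and Lipc, which did not pass, stand beside it for comparison. The Mttp window, which overlaps the opposite-strand gene Trmt10a, held no exon-free stretch long enough to show. All these genes lie on the minus strand, the sequences run 5′ to 3′ along the transcript, and capitals mark motif matches. The stretches are chr2:164857712-164857958 for Pltp, chr8:105943403-105943589 for Lcat, chr9:70952227-70952471 for Lipc, and chr9:70934809-70935058 for a second Lipc start inside the gene.
Pltp: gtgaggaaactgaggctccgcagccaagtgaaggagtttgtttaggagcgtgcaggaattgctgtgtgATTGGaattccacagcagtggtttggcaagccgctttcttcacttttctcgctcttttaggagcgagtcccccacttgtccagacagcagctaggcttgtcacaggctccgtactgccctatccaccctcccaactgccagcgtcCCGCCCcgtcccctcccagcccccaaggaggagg
Lcat: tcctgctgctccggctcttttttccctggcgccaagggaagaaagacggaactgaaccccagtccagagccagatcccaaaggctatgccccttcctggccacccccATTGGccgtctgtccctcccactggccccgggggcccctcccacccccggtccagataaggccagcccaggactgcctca
Lipc: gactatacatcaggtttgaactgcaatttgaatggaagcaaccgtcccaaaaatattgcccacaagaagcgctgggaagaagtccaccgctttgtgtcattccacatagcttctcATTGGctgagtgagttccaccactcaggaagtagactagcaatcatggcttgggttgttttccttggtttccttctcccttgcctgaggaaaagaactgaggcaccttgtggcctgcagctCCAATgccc
Lipc, second start: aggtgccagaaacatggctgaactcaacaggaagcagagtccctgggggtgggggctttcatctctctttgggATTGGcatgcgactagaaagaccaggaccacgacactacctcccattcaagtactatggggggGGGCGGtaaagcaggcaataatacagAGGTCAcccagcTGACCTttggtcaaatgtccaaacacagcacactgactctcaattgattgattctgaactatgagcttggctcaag
Searched on both strands were TATAAA (in 12.4% of the 32851 windows of 250 bases in the table), CCAAT (33.8%), GGGCGG (32.7%), AGGTCA (14%), CACGTG (6.02%), the direct repeats AGGTCANAGGTCA (0.0335%) and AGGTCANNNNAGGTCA (0.0152%), and GTTAATNATTAAC (0.00913%). The half-site AGGTCA also lies within both direct repeats. The Pltp stretch held 1 CCAAT match and 1 GGGCGG match, both on the reverse strand. The Lcat stretch held 1 CCAAT match and the Lipc stretch at the gene's start 2. The stretch at the second Lipc start held 2 AGGTCA matches on opposite strands, 1 CCAAT match and 1 GGGCGG match. These are matches of letters in the stretches shown.

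Lcat (chromosome 8, 105939551 to 105943382, minus strand) encodes the plasma enzyme that esterifies cholesterol on HDL. It had 410 and 471 CPM in WT and 422 and 486 CPM in KO. The genotypes overlapped almost fully, with a log2 ratio of 0.04 within each replicate number and a 95% interval of the fitted log2 fold change from -0.37 to 0.46 (edgeR adjusted p = 0.967). The sign turned without WT replicate 1 or without KO replicate 2 (-0.05 and -0.07). With 328 ± 32.4 RPKM in WT and 338 ± 33.5 RPKM in KO (SD, n = 2), Lcat had the highest level per length of the 9 genes. The ratio of Pltp to Lcat in RPKM was 0.0647 and 0.0699 in WT and 0.0207 and 0.0297 in KO, with no overlap between the genotypes.

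Mttp (chromosome 3, 138089854 to 138144968, minus strand) encodes the large subunit of the microsomal transfer protein, without which no VLDL is assembled. It had 390 and 366 CPM in WT and 353 and 342 CPM in KO. Both KO libraries lay just below both WT libraries, by a log2 ratio of -0.14 within number 1 and -0.10 within number 2, and the fitted 95% interval ran from -0.50 to 0.26 (edgeR adjusted p = 0.853). Mttp shares exon positions with Trmt10a on the opposite strand, which had between 4.50 and 6.42 CPM. Apob, the structural protein onto which the transfer protein loads lipid, has a transcript of 13934 bases and was lower in both libraries numbered 2: WT gave 295171 and 128898 reads of it and KO 351321 and 130561.

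Tm6sf2 (chromosome 8, 70072924 to 70080066, plus strand) encodes a membrane protein of the secretory pathway that is needed to load VLDL fully. It had 26.9 and 36.6 CPM in WT and 22.2 and 26.6 CPM in KO. The KO libraries lay below the WT libraries, the nearest pair almost touching, and the log2 fold change of -0.38 (95% interval -0.88 to 0.13) did not pass (edgeR adjusted p = 0.544).

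Scarb1 (chromosome 5, 125277087 to 125341094, minus strand) encodes the HDL receptor SR-BI. It had 136 and 103 CPM in WT and 151 and 115 CPM in KO. The spread followed the replicate number, with a log2 ratio of replicate 2 over replicate 1 of -0.40 in both genotypes, and the genotypes overlapped. The log2 ratio of KO over WT was 0.16 within each number, and the fitted 95% interval ran from -0.35 to 0.67 (edgeR adjusted p = 0.858). The sign turned without WT replicate 2 or without KO replicate 1 (-0.04 and -0.05).

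Per length, the order of the 9 genes in WT was Lcat, Lipc (73.9 ± 9.43 RPKM), Angptl4 (65.2 ± 9.16), Mttp (60.9 ± 2.73), Pltp (22.2 ± 3.39), Tm6sf2 (16.7 ± 3.63), Scarb1 (14.1 ± 2.73), Lipg (9.12 ± 0.875) and Lpl (0.568 ± 0.161), each as mean and SD of 2 libraries. The neighbours Lipc and Angptl4, Angptl4 and Mttp, and Tm6sf2 and Scarb1 were closer than their spread. With the longest transcript as length Mttp stood second, at 95.4 RPKM in WT and 87.7 in KO. In KO, by the union of exons, Pltp stood seventh with 8.63 ± 3 RPKM and Lpl last with 1.53 ± 0.231 RPKM (SD, n = 2). The mean level of Lpl over the 4 libraries exceeded that of 33.1% of tested genes, and that of Lcat exceeded 98.9%.

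Of all tested genes, edgeR called 0.961% higher and 0.947% lower in KO. Of 23 genes of VLDL assembly and secretion, 1 was called lower and none higher, with a median log2 fold change of -0.03. The called gene was Ces1g, a carboxylesterase of the liver endoplasmic reticulum whose gene lies 1.63 Mb from Fto, which fell from 243 ± 2.83 CPM in WT to 57.2 ± 6.68 (SD, n = 2; log2 fold change -2.09, edgeR adjusted p = 0.00272); carboxylesterases are close paralogs, so its level is uncertain. The lipid droplet gene Cidec averaged 42.8 ± 22 CPM in WT against 9.63 ± 5.42 in KO (SD, n = 2), which did not pass (log2 fold change -2.15, edgeR adjusted p = 0.0711). Its value depended on single libraries: it ranged from -1.50 (WT replicate 2 out) to -2.89 (KO replicate 2 out), and Cidec passed with edgeR whichever library was left out, but not with DESeq2 (adjusted p = 0.112). Of 15 genes of HDL and reverse cholesterol transport, Apom rose and Cd36 fell, and the median was -0.08. Apom, an HDL apolipoprotein that carries sphingosine-1-phosphate, rose 2.26-fold, from 93.4 ± 4.93 CPM in WT to 211 ± 8.03 (SD, n = 2; edgeR adjusted p = 0.017). Cd36, a scavenger receptor that takes up fatty acids and modified lipoproteins, fell from 154 ± 30.8 CPM in WT to 32.2 ± 1.33 (SD, n = 2; log2 fold change -2.25, edgeR adjusted p = 0.00323). Abcg5, part of the sterol exporter, had -0.64 (edgeR adjusted p = 0.177).

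Of 14 lipoprotein receptors and clearance genes, edgeR and limma-voom called none and DESeq2 called 3, beside 4.15% of all tested genes called by DESeq2. With edgeR 3 of the 14 had an unadjusted p under 0.05, beside 13.0% of all tested genes. Vldlr, a receptor that binds VLDL, averaged 6.26 ± 0.654 CPM in WT against 1.95 ± 0.917 in KO (SD, n = 2; log2 fold change -1.68, edgeR adjusted p = 0.0612). It passed with DESeq2 (adjusted p = 0.000415) and with edgeR whichever library was left out, with values from -1.28 (KO replicate 2 out) to -2.26 (KO replicate 1 out). Lsr, the lipolysis-stimulated lipoprotein receptor, had a log2 fold change of 0.74 (edgeR adjusted p = 0.0838). Of 20 transcriptional regulators of lipoprotein genes, 1 was called by edgeR, beside 1.91% of all tested genes. Pparg, the nuclear receptor that drives fat cell genes, Lpl among them, fell from 18.8 ± 4.79 CPM in WT to 7.54 ± 0.314 (SD, n = 2; log2 fold change -1.31, edgeR adjusted p = 0.0352), while Lpl itself was higher; with library size alone Pparg was not called (edgeR adjusted p = 0.0607).

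Of 25 targets of PPARα, the fatty acid receptor that also controls Angptl4, 14 had an unadjusted p under 0.05 with edgeR, beside 13.0% of all tested genes. In 22 of the 25 the WT and KO libraries did not overlap in CPM, beside 42.0% of all tested genes. The median log2 fold change was -0.49. A total of 6 were called lower and 1 higher, beside 0.947% and 0.961% of all tested genes. Besides Cd36 the lower genes were the thioesterases Acot3 (-1.91) and Acot2 (-1.29), the perilipin Plin4 (-1.81), the pantetheinase Vnn1 (-1.51) and the peroxisomal thiolase Acaa1b (-1.29), and Cyp4a31, a hydroxylase of fatty acids, was higher (1). Acot2 lost its call with library size alone and without KO replicate 2 (edgeR adjusted p = 0.103 and 0.0512), and Cyp4a31 with library size alone and without WT replicate 2 (edgeR adjusted p = 0.0717 and 0.0603). Ppara itself had a log2 fold change of 0.29 (edgeR adjusted p = 0.751). Angptl4, which is not on this list, had a log2 fold change of 0.14, with an interval that includes 0.

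**Figure D4:**
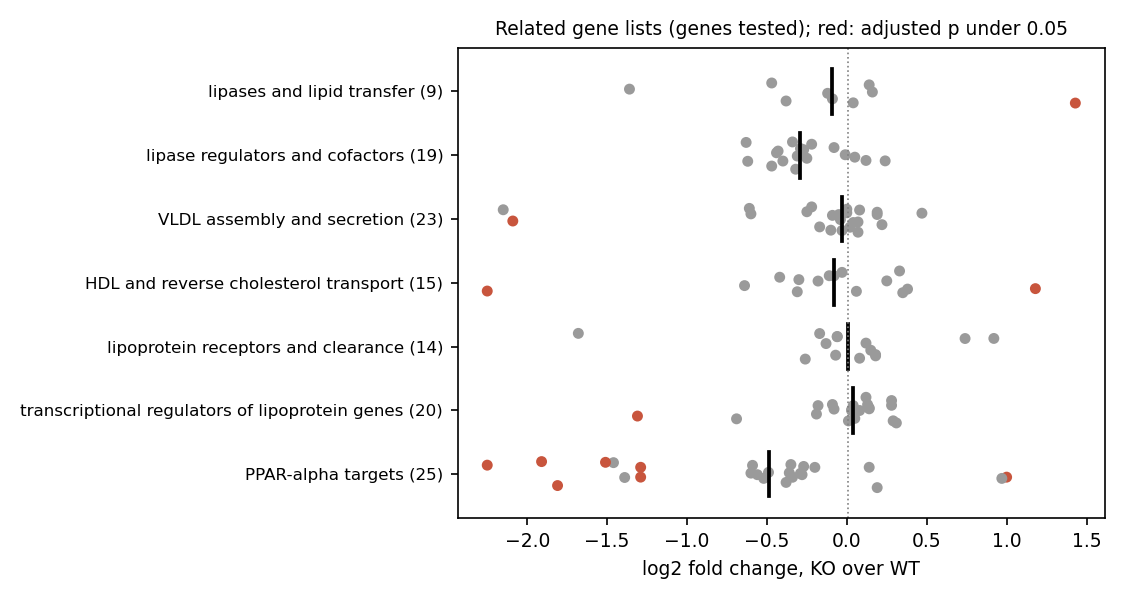
Log2 fold change of KO over WT (x axis) for each tested gene of the 9 and of 6 lists of related genes (rows, number tested in brackets); black bars are list medians, red points had an adjusted p under 0.05, and the dotted line is the median of all tested genes. The list of PPARα targets has the lowest median, -0.49, and the 9 genes have -0.09.

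Lpl is also expressed by macrophages, fat cells and muscle, so markers of these cells were read in the same libraries. Of 16 markers of Kupffer cells, the resident macrophages of the liver, 14 had a positive log2 fold change, with a median of 0.82. A total of 2 were called higher by edgeR and 5 by DESeq2, beside 0.961% and 2.05% of all tested genes called higher. With edgeR 14 of the 16 had an unadjusted p under 0.05, and in 14 of the 16 both KO libraries lay above both WT libraries, beside 13.0% and 21.6% of all tested genes. Their summed level was 369 and 461 CPM in WT and 608 and 601 CPM in KO, so it was higher in both KO libraries, as Lpl was. Marco, a scavenger receptor of these cells, rose 3.15-fold (edgeR adjusted p = 0.0155). Csf1r, the receptor they need to survive, rose 1.96-fold (edgeR adjusted p = 0.0478), but was not called without WT replicate 1, without KO replicate 1 or with library size alone (edgeR adjusted p = 0.067, 0.0842 and 0.0738). Lpl reads amounted to 1.29% and 1.55% of the summed marker reads in WT and to 2.35% and 2.95% in KO. The summed markers include the 2 with a negative log2 fold change. In 1 of the 16 both KO libraries lay below both WT libraries. The log2 ratio of the sum was 0.72 within replicate number 1 and 0.38 within number 2, below the median of 0.82 for single markers. The part of Kupffer cells in the Lpl result was not tested. Pltp, which macrophages also express, went the other way, with 13.7% and 13.6% of the marker reads in WT and 2.74% and 4.59% in KO.

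The 10 fat cell markers summed to 133 and 208 CPM in WT and 103 and 169 CPM in KO. The sums include Cidec, also on the VLDL list, with 27.2 and 58.3 CPM in WT and 5.8 and 13.5 CPM in KO. They are thus not a measure of fat cells alone. None of the 8 markers tested passed with edgeR, with DESeq2 or with limma-voom. With edgeR 1 of the 8, Cidec, had an unadjusted p under 0.05, beside 13.0% of all tested genes. With single libraries left out, edgeR called 3 (WT replicate 1 out, all lower), 2 (WT replicate 2 out, 1 higher and 1 lower), 1 (KO replicate 1 out, lower) and 4 (KO replicate 2 out, all lower). Their defining gene Adipoq, the adiponectin gene, was all but absent from the libraries numbered 1, with 1 read (WT) and 0 reads (KO), and had 70 (WT) and 71 (KO) in those numbered 2. Lep, the leptin gene, followed the same split, with no read in either library numbered 1 and 41 (WT) and 36 (KO) in those numbered 2. The log2 ratio of Lpl between KO and WT was 1.59 in the libraries numbered 1 and 1.31 in those numbered 2, from 1 library per genotype each. The part of fat cells in the Lpl result was not tested. The 8 muscle markers summed to at most 0.675 CPM in any library, 2 of them had no read in any library, and none was high enough to test.

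Endothelial cells are a main source of Lipg and carry much Scarb1. The 13 endothelial markers summed to 243 and 320 CPM in WT and 306 and 242 CPM in KO, so the genotypes overlapped, as they did for 12 of the 13 single markers; edgeR called none, with 1 at an unadjusted p under 0.05, and DESeq2 called 1. The exception was Lyve1, a hyaluronan receptor of liver sinusoids, averaging 3.9 ± 0.649 CPM in WT against 1.48 ± 0.281 in KO (SD, n = 2; log2 fold change -1.40, edgeR adjusted p = 0.0623). The ratio of Lipg to the endothelial marker Pecam1 in RPKM was 7.15 and 5.06 in WT and 4.05 and 3.8 in KO. Among other lists, 9 markers of recruited macrophages summed to 31.5 and 52.3 CPM in WT and 40.3 and 58.9 CPM in KO, and 12 of stellate cells to 205 and 283 CPM in WT and 204 and 208 CPM in KO. Neither list had a gene called by edgeR or DESeq2, and 0 of the 9 and 3 of the 12 had an unadjusted p under 0.05 with edgeR. The 8 bile duct markers summed to between 27.0 and 45.5 CPM and the 8 lymphocyte markers to between 2.42 and 4 CPM. The 7 erythroid markers summed to 270 and 305 CPM in WT and 186 and 206 CPM in KO, and all 5 that were tested had lower levels in both KO libraries. None of these 5 was called by edgeR, where 4 had an unadjusted p under 0.05, and DESeq2 called 3. Of all tested genes, 42.0% had no overlap between the genotypes, and 20.4% were lower in KO without overlap. An unadjusted p under 0.05 with edgeR was found for 13.0%, and DESeq2 called 4.15%.

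**Figure D5:**
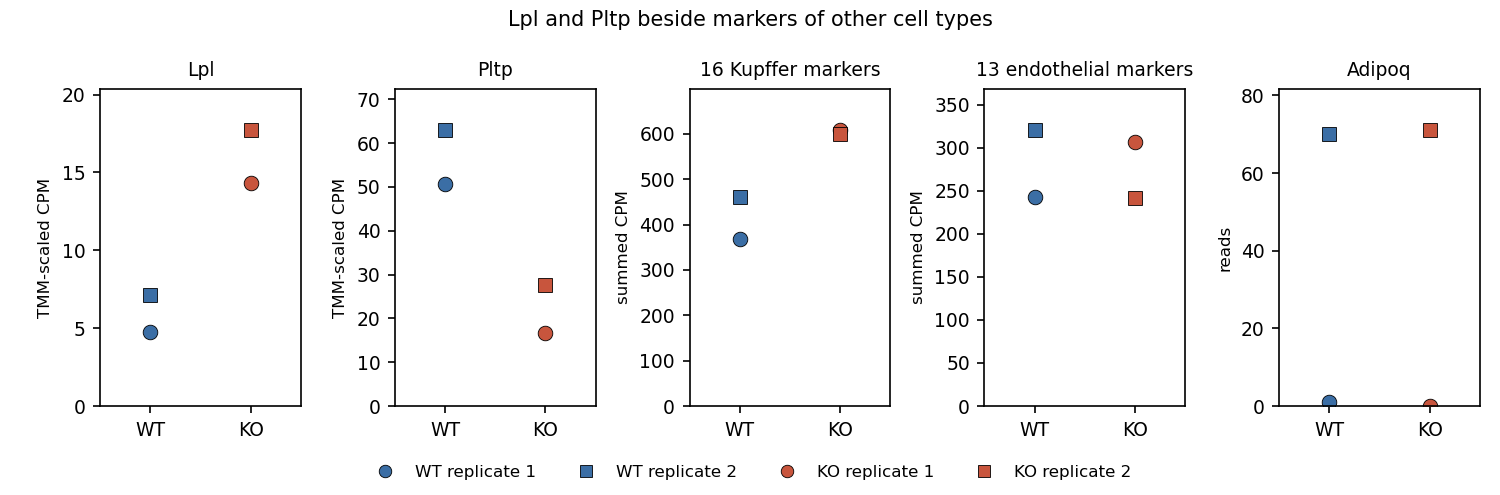
Lpl and Pltp in TMM-scaled CPM, the summed CPM of 16 Kupffer cell and 13 endothelial markers, and the reads of the fat cell gene Adipoq, each in WT and KO (x axis; circles are replicates numbered 1, squares those numbered 2). Lpl and the Kupffer markers are higher in both KO libraries, Pltp is lower, the endothelial markers overlap, and Adipoq follows the replicate number.

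Of the 9 genes, Lpl, Tm6sf2 and Lcat lie on chromosome 8 with Fto, at 22.4, 21.2 and 14.3 Mb from it, and only Lpl of these was called. Of the related genes, Ces1d, Ces1f and Ces1g lie closer, at 1.5, 1.59 and 1.63 Mb, and only Ces1g of these was called. Since Fto acts on methylated adenosine, the letters GGACT, in which the modified base is often found, were counted in the longest annotated transcript of each gene. Lpl had 3 (0.729 per kilobase) and Pltp 1 (0.449 per kilobase), which exceeded 30.0% and 14.3% of 12757 tested coding genes, and the other 7 genes lay between the 33.8 and 75.5 percentiles. The median of all these genes was 1.04 per kilobase. The letters do not show whether a base is methylated, which these counts do not measure.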

How the data were processed

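RNA-seq libraries of mouse liver, 2 WT and 2 KO, were analysed. The authors deposited whole-number counts of reads per gene, with no normalisation. Per the labels' protocols, polyadenylated RNA was made into TruSeq v2 libraries and read as pairs of 101 bases. Per the submitters' processing notes, TopHat2 2.1.1, HTSeq 0.6.0 and build mm10 were used; the sources used here give neither annotation release nor counting options. Symbols, positions and lengths came from GENCODE M21 (35533 of 37315 identifiers matched).

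The deposited counts entered edgeR 4.0.16 (R 4.3.3): filterByExpr (minimum count 10, minimum total 15), TMM scaling, a robust quasi-likelihood fit on genotype alone and its F test (two-sided). Benjamini-Hochberg adjustment ran over 13836 genes, with calls under 0.05. The SE was derived from the log2 fold change and F. RPKM divides scaled CPM by the union of annotated exons. The alternatives used DESeq2 1.42.0, limma 3.58.1, other scalings, no filter, a length offset, a term for replicate number, and each library left out, where the lone library of a genotype is assumed to vary like the other pair. The procedure was also run on simulated counts, which had no shift by replicate number or transcript length, unlike these libraries. The outcome is not reported here. The p-values measure the spread between libraries, which may be technical.

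The genes and lists were chosen with earlier results of these data known. The text names the 9 genes and Fto, and from each list the called genes and up to 4 with the smallest p (3 for marker lists); some genes this rule takes are not reported here. Other genes (Ctsa, Trmt10a, Apob, Ppara, Gpihbp1, Adipoq, Lep, Pecam1) were added after their values were seen, for overlap, role or contrast.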

Additional observations from a re-analysis of the deposited data

How the results depend on the processing

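Lpl kept its direction under all 12 alternatives, with log2 fold changes from 1.16 to 1.74, and was called in 11; with library size alone it was 1.45 (edgeR adjusted p = 0.0528) and 0 of the 9 genes were called. Pltp also kept its direction and passed in 10 of 12: -1.36 with no filter, -1.37 with the DESeq2 test, -1.40 with limma-voom, -1.34 with the length offset, and -1.77 to -1.04 when single libraries were left out. It did not pass with library size alone or with DESeq2 size factors (edgeR adjusted p = 0.0814 and 0.05). The count of the 9 genes called was then 2 with no filter, DESeq2, limma-voom, the length offset and each library left out, where the lone library of a genotype is assumed to vary like the other pair. With single libraries left out, Lipc ranged from -0.28 to 0.06, Lcat from -0.07 to 0.14 and Scarb1 from -0.05 to 0.37, so their signs turned; those of the other 6 genes did not.

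Over all genes, 264 calls became 829 with no filter, 574 with DESeq2, 481 with the length offset, 176 with library size alone, and 460 to 633 when single libraries were left out. Of the 114 genes on the companion lists 10 were called, 17 with no filter, 7 with library size alone, and 14 to 15 with single libraries left out. The Kupffer list had 2 calls, and between 1 and 13 under the alternatives. The fat cell list had 0 calls, and up to 4 under the alternatives. With single libraries left out, the endothelial markers Egfl7 (-0.58 to 0.03) and Tek (-0.68 to 0.04) and the fat cell marker Trarg1 (-0.30 to 1.36) turned sign. With the longest transcript as length, chosen after seeing the data, the Lpl share of the lipases was 1.5% in WT and 4.34% in KO. The causes were not tested.

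The replicate numbers are not said to pair animals, and 2 pairs cannot show it; the deviations of same-numbered libraries correlated with r = 0.54 across tested genes, which are not independent replicates. With a replicate block, Pltp was -1.39 and -1.36 with the length offset added, 4 of the 9 genes were called both ways (Lpl, Pltp, Lipg and Tm6sf2), as were 2729 and 2507 genes in all (19.7% and 18.1% of those tested), and 48 and 49 companion genes, 8 and 9 of them regulators or cofactors of lipases, all lower.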
